A study of Homo sapiens with 12 samples.

Results

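The HLA class II presentation genes are the set of 10 genes described here, taken by symbol from the gene tables: HLA-DRA, HLA-DRB1, HLA-DPA1, HLA-DPB1, HLA-DQA1, HLA-DQB1, HLA-DMA, HLA-DMB, CD74 and CIITA. They are 10 of the 18304 gene symbols with a row in either deposited table. The rule uses symbols and no measured values, but the members were chosen with earlier results of these data known. OCI-AML2 and MOLM-13, from which the RNA came, are established human acute myeloid leukaemia cell lines. Cells had been exposed for 36 h to selinexor, an inhibitor of the nuclear export receptor XPO1, or to DMSO as vehicle, and the study asked how blocking nuclear export alters gene expression in these lines. The groups were OCI-AML2 with selinexor at 200 nM, OCI-AML2 with vehicle, MOLM-13 with selinexor at 75 nM and MOLM-13 with vehicle, with 3 libraries each that the labels describe as independent biological samples. The dose differed between the lines, so line and dose cannot be told apart in any difference between them. Library totals lay between 8114892 and 11769061 counts, so that 3 counts, taken as the floor of detection, were worth 0.249 to 0.375 CPM (reads scaled to library size) in a library.

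Class II molecules are pairs of an alpha and a beta chain, DR, DQ or DP, that carry peptides from the endosomal route to the surface of professional antigen-presenting cells, where CD4+ T cells read them. CD74, the invariant chain, fills the groove of a new pair and guides it to endosomes, where proteases trim it, and HLA-DM, made of HLA-DMA and HLA-DMB, exchanges its remnant for peptide. CIITA, the class II transactivator, binds no DNA itself and is recruited by factors sitting on the X and Y boxes of the class II promoters. In acute myeloid leukaemia, class II on the blasts matters because donor T cells can recognise it after transplantation, and its loss has been described at relapse.

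Promoter stretches of the tested members that matched are printed with exact matches to some letters of the known class II promoter boxes marked. In the RefSeq set of windows, GRCh38.p14, 250 bases before to 50 after each start, 8 of the 10 members matched with 9 windows, HLA-DPA1 having more than 1. Each line below runs 5′ to 3′ on the strand of the gene and ends before its start. It covers the first ATTGG on that strand, CCAAT in CD74, or, for HLA-DPA1, the bases next to the start. That match began 53 bases before the start in CD74, 46 in HLA-DRB1, 88 in HLA-DQB1, 79 in HLA-DMA and 99 in HLA-DPB1. The capitals mark ATTGG or its complement CCAAT, the core of the Y box bound by NF-Y, and TGATGA or its complement TCATCA, letters found in the X box of the DR beta promoter. The stretches are chr5:150412934-150413033 (minus strand) for CD74, chr6:32589865-32589964 (minus) for HLA-DRB1, chr6:32666716-32666815 (minus) for HLA-DQB1, chr6:32953147-32953246 (minus) for HLA-DMA and chr6:33075821-33075920 (plus) for HLA-DPB1. Those of HLA-DPA1 (minus) are chr6:33080749-33080848 for the upstream start and chr6:33073650-33073749 for the downstream one. The upstream stretch lies inside the span of HLA-DPB1, chr6:33075926-33087201 on the opposite strand.
CD74: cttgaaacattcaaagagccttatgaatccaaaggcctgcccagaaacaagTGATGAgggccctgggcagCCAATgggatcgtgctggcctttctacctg
HLA-DRB1: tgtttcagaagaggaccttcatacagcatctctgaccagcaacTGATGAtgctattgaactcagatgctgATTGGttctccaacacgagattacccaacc
HLA-DQB1: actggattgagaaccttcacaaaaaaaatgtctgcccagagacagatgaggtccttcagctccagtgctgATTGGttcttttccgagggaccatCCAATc
HLA-DMA: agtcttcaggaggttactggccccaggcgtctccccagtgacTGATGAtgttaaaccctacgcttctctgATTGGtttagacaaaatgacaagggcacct
HLA-DPB1: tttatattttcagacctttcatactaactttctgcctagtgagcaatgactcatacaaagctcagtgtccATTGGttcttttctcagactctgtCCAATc
HLA-DPA1 upstream start: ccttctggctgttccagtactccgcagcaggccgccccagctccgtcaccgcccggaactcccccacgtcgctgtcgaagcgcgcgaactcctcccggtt
HLA-DPA1 downstream start: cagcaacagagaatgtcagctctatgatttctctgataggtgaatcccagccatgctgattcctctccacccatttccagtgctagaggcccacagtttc
Searched on both strands of the whole windows, ATTGG was in 7 of the 9 member windows, all but those of HLA-DPA1, and in 34.6% of all 35116 windows of the same length. The longer CTGATTGG, which contains ATTGG, was in 3 of the 9, those of HLA-DRB1, HLA-DQB1 and HLA-DMA, and in 3.97% of all. TGATGA was in 5 of the 9, 1 of them a window of HLA-DPA1 whose match lies outside the printed stretch, and in 10.9% of all. ATTGG and TGATGA occurred together in the windows of CD74, HLA-DRB1, HLA-DMB and HLA-DMA, and in 4.11% of all windows. A match describes the letters and is not a measurement of binding. Boxes with other letters were not searched, so a missing match does not show that a box is absent.

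After selinexor, the class II genes did not move as a block. CD74 and HLA-DMA, the chaperone and a subunit of the peptide exchanger, were called higher in both lines. The HLA-DMA call in OCI-AML2 was near the threshold, with overlapping libraries, and was lost under DESeq2 and limma voom. The DR beta gene HLA-DRB1 was higher in OCI-AML2, while in MOLM-13 HLA-DQB1 was higher and both DP chains fell, to 0.417 of the vehicle level for HLA-DPA1 and 0.424 for HLA-DPB1. CIITA was higher in OCI-AML2 by a fold of 1.19 and did not pass the test in MOLM-13. Of the 10 members, 9 had a row in the OCI-AML2 table and 4 had enough counts to be tested, and 10 had a row in the MOLM-13 table and 6 were tested. In OCI-AML2, 4 of the 4 tested members were called higher, where 31.3% of all genes tested were called higher, 31.8% lower and 63.1% either way. HLA-DRB1 is 1 of the 4 and passed the filter on low counts only through its selinexor libraries, and the count was 2 without selinexor library 3. In MOLM-13, 3 of the 6 were called higher and 2 lower, where 31.8% of all genes were called in each direction, 63.6% in all. A call is a Benjamini-Hochberg adjusted p under 0.05 over all genes tested in edgeR's quasi-likelihood test. With most of the transcriptome moving, a call alone does not set a member apart. In bulk RNA, fewer cells of a type and less RNA per cell cannot be told apart.

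**Figure D1:**
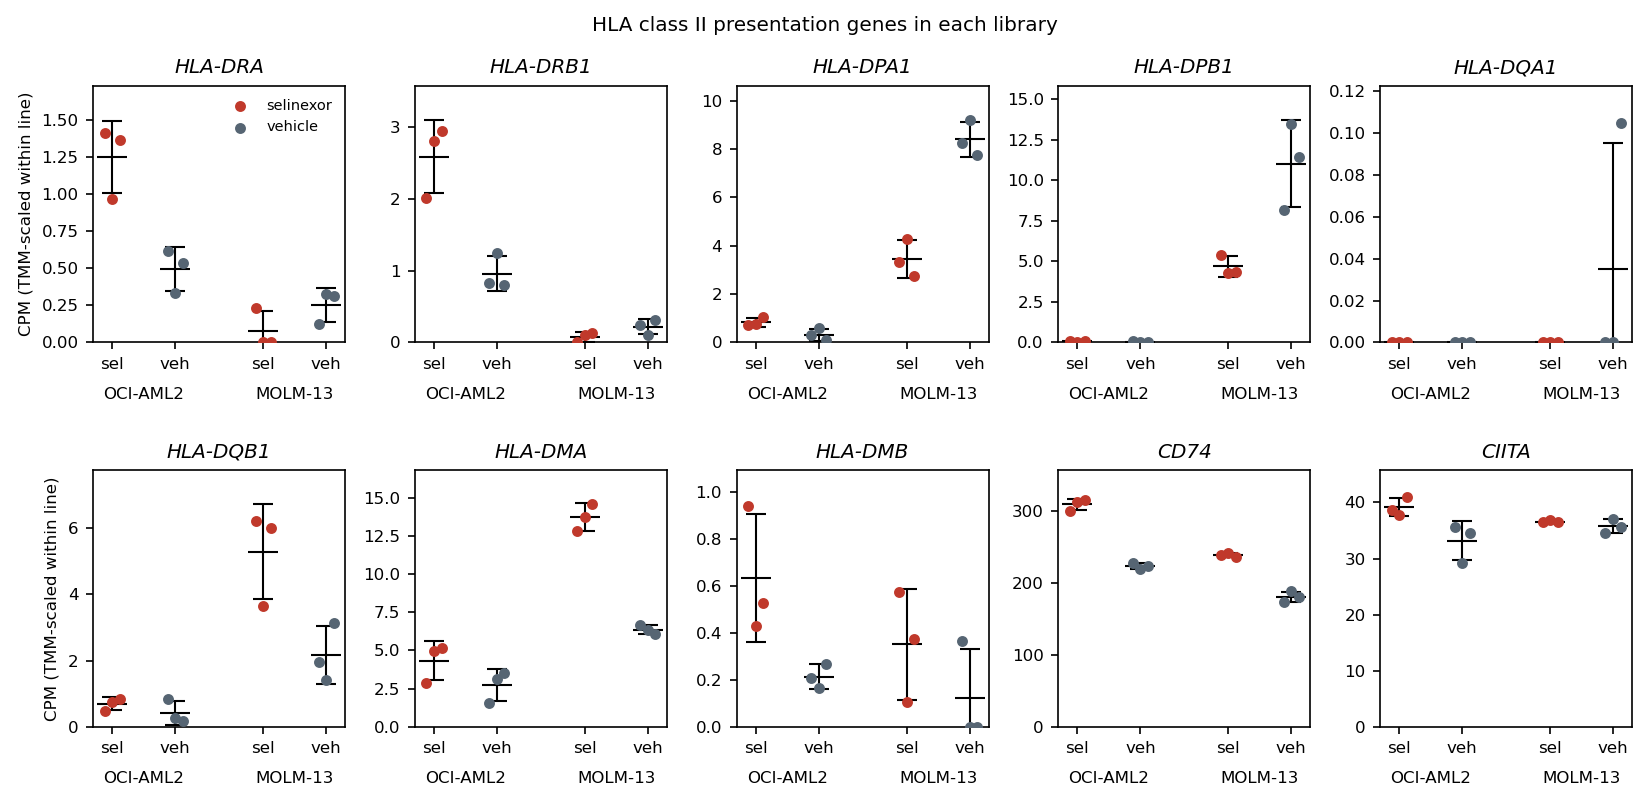
TMM-scaled CPM of each of the 10 members in each library, by line, with selinexor left of vehicle; each point is a library and bars give the mean and SD of 3 libraries, on axes that start at 0 and differ between panels. CD74 reaches 300.3 to 315 CPM with selinexor in OCI-AML2 against 219 to 227 with vehicle, the DP chains stand out in MOLM-13 vehicle, and the DR chains are seen mainly in OCI-AML2.

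CD74 was the most abundant member by far. In OCI-AML2 it had 300.3, 312 and 315 CPM in selinexor libraries, against 227, 219 and 223 CPM in vehicle libraries. Every selinexor library lay above every vehicle library. The means were 309 ± 7.77 CPM with selinexor and 223 ± 4.43 CPM with vehicle (SD, n = 3 each), a log2 fold change of 0.47 ± 0.0408 (SE) with an adjusted p of 1.47e-13 in edgeR's quasi-likelihood test. In MOLM-13 it had 239, 242 and 236 CPM in selinexor libraries, against 173, 188 and 180 CPM in vehicle libraries, again without overlap. The log2 fold change there was 0.40 ± 0.0416 (edgeR, adjusted p = 3.70e-15), so the rise was a fold of 1.39 in OCI-AML2 and of 1.32 in MOLM-13. The authors' deposited table, which gives vehicle over selinexor, lists -0.39 with a standard error of 0.0504 for CD74 in MOLM-13, and it lists 1.28 for HLA-DPA1, 1.25 for HLA-DPB1, -1.26 for HLA-DQB1, -1.10 for HLA-DMA and -0.02 for CIITA on the same log2 scale.

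HLA-DMA was the other member called higher in both lines. In MOLM-13 it had 12.8, 13.8 and 14.6 CPM in selinexor libraries, against 6.68, 6.35 and 6.07 CPM in vehicle libraries. The groups stood well apart, with a log2 fold change of 1.11 ± 0.161 (edgeR, adjusted p = 2.40e-09), a fold of 2.16. In OCI-AML2 it had 2.83, 4.96 and 5.15 CPM in selinexor libraries, against 1.55, 3.15 and 3.50 CPM in vehicle libraries. Library 1 of each group was low there and the groups overlapped, since the lowest selinexor library lay below 2 vehicle libraries. The OCI-AML2 call was near the threshold, at a log2 fold change of 0.64 ± 0.274 (edgeR, adjusted p = 0.0397). It was lost under DESeq2 (adjusted p = 0.0934) and limma voom (adjusted p = 0.0612), and without vehicle library 1 (edgeR, adjusted p = 0.236), selinexor library 2 (edgeR, adjusted p = 0.157) or selinexor library 3 (edgeR, adjusted p = 0.195). Its partner chain HLA-DMB was too low to test: it had 8, 4 and 5 counts in selinexor libraries and 2, 2 and 3 in vehicle libraries of OCI-AML2, and 5, 1 and 3 counts with selinexor and 3, 0 and 0 with vehicle in MOLM-13.

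HLA-DRB1, the DR beta chain, was detected mainly in OCI-AML2. It had 2.01, 2.80 and 2.94 CPM in selinexor libraries of that line, against 0.824, 1.24 and 0.807 CPM in vehicle libraries, from 17, 26 and 28 counts with selinexor and 8, 15 and 9 with vehicle. The groups did not overlap, and the log2 fold change was 1.41 ± 0.352, a fold of 2.66 (edgeR, adjusted p = 5.98e-04). It entered the test through its selinexor libraries: 3 of 3 selinexor libraries reached the filter's level of 1.04 CPM and 1 of 3 vehicle libraries did. HLA-DRA, the shared DR alpha chain, was below that filter, with 12, 9 and 13 counts in selinexor libraries, against 6, 4 and 6 in vehicle libraries of OCI-AML2. Scaled for depth, its pooled ratio of selinexor over vehicle was 2.57, with a 95% interval of 1.38 to 4.98 that covers counting error only, and with no filter on low counts its log2 fold change was 1.32 (edgeR, adjusted p = 0.0366), where 22.4% of all genes were called higher and 23.0% lower. In MOLM-13 the DR chains were at the floor: HLA-DRA had 2, 0 and 0 counts with selinexor and 1, 3 and 3 with vehicle, and HLA-DRB1 had 0, 1 and 1 with selinexor and 2, 1 and 3 with vehicle. HLA-DRB5, another DR beta locus, had 8, 11 and 9 counts with selinexor and 3, 3 and 11 with vehicle in OCI-AML2 and no row in MOLM-13. It held 8.64% of the 50-base words of HLA-DRB1's transcripts, so reads can be shared between the loci.

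The DP pair moved the other way in MOLM-13. HLA-DPA1, the DP alpha chain, had 3.34, 4.28 and 2.75 CPM in selinexor libraries, against 8.26, 9.19 and 7.75 CPM in vehicle libraries, which is 29, 41 and 22 counts with selinexor against 68, 84 and 74 with vehicle. HLA-DPB1, the DP beta chain, had 5.42, 4.28 and 4.37 CPM in selinexor libraries, against 8.14, 13.5 and 11.4 CPM in vehicle libraries. For both genes every selinexor library lay below every vehicle library. The log2 fold changes were -1.26 ± 0.214 for HLA-DPA1 (edgeR, adjusted p = 2.02e-07) and -1.24 ± 0.190 for HLA-DPB1 (edgeR, adjusted p = 1.33e-08). In OCI-AML2, HLA-DPA1 had 6, 7 and 10 counts with selinexor and 3, 7 and 1 with vehicle, and HLA-DPB1 had 1, 0 and 1 with selinexor and 1, 0 and 0 with vehicle, so neither was tested alone in that line. The genes overlap at their 5′ ends on opposite strands, HLA-DPA1 at chr6:33064569-33080775 (minus) and HLA-DPB1 at chr6:33075926-33087201 (plus), and their spans share 4850 bases, of which 96 are exonic in both. The libraries did not keep strand, so reads from the shared bases cannot be assigned to either gene.

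HLA-DQB1, the DQ beta chain, was higher in MOLM-13 with selinexor. It had 6.23, 3.65 and 5.998 CPM in selinexor libraries, against 1.94, 1.42 and 3.14 CPM in vehicle libraries. The groups did not overlap, although selinexor library 2 came close to vehicle library 3. The log2 fold change was 1.26 ± 0.276, a fold of 2.39 (edgeR, adjusted p = 4.33e-05). Its alpha chain HLA-DQA1 had 0, 0 and 0 counts with selinexor and 0, 0 and 1 with vehicle in MOLM-13 and no row in OCI-AML2. In OCI-AML2, HLA-DQB1 had 4, 7 and 8 counts with selinexor and 8, 3 and 2 with vehicle, too few to test. HLA-DQB1 shares 241 exonic bases with HLA-DQB1-AS1 on the opposite strand, and that antisense gene had 41 counts over the 6 MOLM-13 libraries, below the filter.

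CIITA, the coactivator of the whole family, changed little. In OCI-AML2 it had 38.7, 37.9 and 41.0 CPM in selinexor libraries, against 35.7, 29.2 and 34.6 CPM in vehicle libraries. Vehicle library 2 was the low one, and the groups did not overlap. The log2 fold change was 0.25 ± 0.0840 (edgeR, adjusted p = 0.0102), and the call was lost without vehicle library 2 (edgeR, log2 fold change 0.15, adjusted p = 0.118) and without selinexor library 3 (edgeR, 0.21, adjusted p = 0.0595). In MOLM-13 CIITA had 36.4, 36.8 and 36.5 CPM in selinexor libraries, against 34.5, 37.0 and 35.7 CPM in vehicle libraries, at a log2 fold change of 0.03 ± 0.0836 (edgeR, adjusted p = 0.748). Of the 50-base words of CIITA's transcripts, 22.5% also occurred in transcripts of other annotated genes, and some of those genes overlap it. Over the tested members of both lines, the selinexor and vehicle libraries did not overlap for 3 of 4 in OCI-AML2, all higher, where 33.0% of all genes lay wholly above and 33.3% wholly below, and for 5 of 6 in MOLM-13, where 32.7% lay wholly above and 32.8% wholly below.

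**Figure D2:**
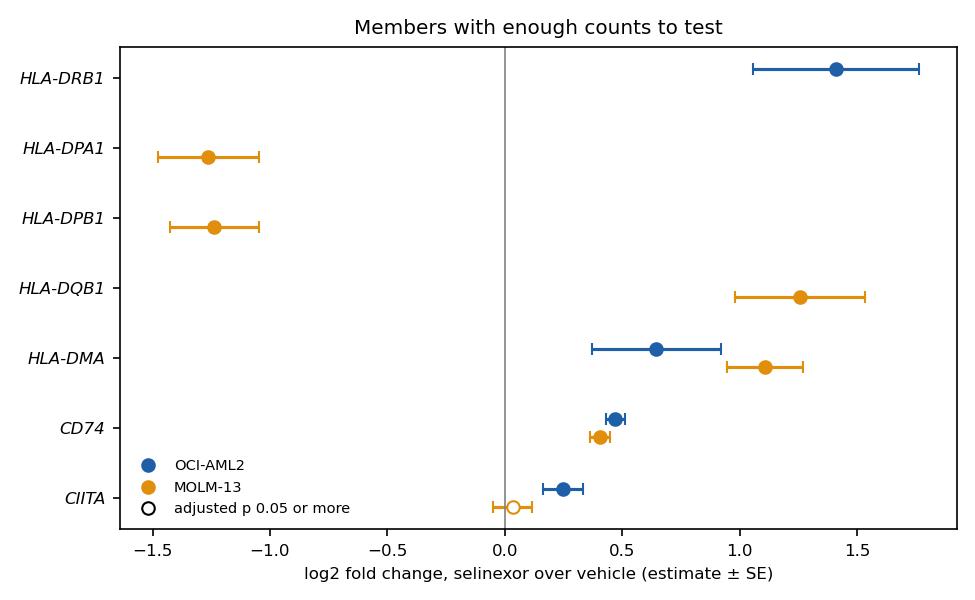
Log2 fold change of selinexor over vehicle, with its SE, for the members tested in OCI-AML2 (4) and MOLM-13 (6); open circles have an adjusted p of 0.05 or more. HLA-DPA1 (-1.26) and HLA-DPB1 (-1.24) lie left of 0 in MOLM-13, and CD74 (0.47 and 0.40) lies right of 0 in both lines.

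Whether the response depended on the line was read from the interaction term over the 12 libraries, which gives the effect in OCI-AML2 minus that in MOLM-13. HLA-DPA1 was the only member of the 7 tested that passed, at a log2 difference of 2.62 ± 0.605 (edgeR, adjusted p = 3.70e-04), where 19.0% of all genes were called higher, 11.1% lower and 30.1% either way. That balance depends on scaling, since 63.2% of all interaction calls were higher here and 55.6% with DESeq2 size factors. The OCI-AML2 side of HLA-DPA1 rests on 23 counts with selinexor and 11 with vehicle. Leaving out any of the 12 libraries kept the difference between 2.08 and 3.28, with adjusted p up to 0.00607. HLA-DRB1 had a difference of 2.86 ± 1.19 (edgeR, adjusted p = 0.0592), from a MOLM-13 side at the floor, and limma voom called it (adjusted p = 0.0183). HLA-DRB1 passed the filter on low counts only through its OCI-AML2 selinexor libraries, which favours a positive difference. HLA-DPB1 had 2.26 ± 1.64 (edgeR, adjusted p = 0.315), with 3 counts in all in OCI-AML2. CD74 had 0.11 ± 0.0591 (edgeR, adjusted p = 0.138), CIITA 0.26 ± 0.118 (edgeR, adjusted p = 0.0830), HLA-DMA -0.42 ± 0.308 (edgeR, adjusted p = 0.324) and HLA-DQB1 -0.42 ± 0.721 (edgeR, adjusted p = 0.709). A difference that misses the threshold does not show that the lines responded alike.

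The lines also started from different class II levels. Between the vehicle groups, OCI-AML2 over MOLM-13, 2 of the 7 tested members were higher and 4 lower, where 36.2% of all genes tested were called higher, 35.0% lower and 71.2% either way. HLA-DRB1 was higher by a log2 of 2.02 ± 0.629 (edgeR, adjusted p = 0.00311) and CD74 by 0.27 ± 0.0423 (edgeR, adjusted p = 2.79e-08). HLA-DPA1 was lower at -4.63 ± 0.352 (edgeR, adjusted p = 2.40e-21), HLA-DQB1 at -2.46 ± 0.467 (edgeR, adjusted p = 2.53e-06) and HLA-DMA at -1.22 ± 0.227 (edgeR, adjusted p = 1.49e-06). HLA-DPB1 had 1 count in the OCI-AML2 vehicle libraries and 299 in the MOLM-13 ones, a depth-scaled ratio of 0.00267 with a 95% counting interval of 6.73e-05 to 0.0150 (edgeR, adjusted p = 2.67e-27). CIITA did not pass, at -0.15 ± 0.0834 (edgeR, adjusted p = 0.0988). HLA-DRB1, HLA-DPA1, HLA-DPB1 and HLA-DQB1 passed the filter in only 1 line, which favours a difference, and HLA-DRB1 did so through its selinexor libraries. HLA genes vary between people, so these are comparisons of reads that mapped to the reference alleles. The part of mapping in them was not tested.

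Per kilobase of annotated exon, the members can be ranked within a group. The length is that of all annotated exons of a gene together, 20.8 kb for CIITA and 1.23 kb for HLA-DRB1. The place of CIITA beside the chains depends on that length. Before division, in OCI-AML2 with selinexor, CIITA had 39.2 CPM and HLA-DRB1 2.58 CPM. In OCI-AML2 with selinexor, CD74 stood at 98.2 ± 2.62 CPM per kb (SD, n = 3). HLA-DRB1 (2.13 ± 0.419), CIITA (1.91 ± 0.0854) and HLA-DMA (1.72 ± 0.516) followed on that scale and did not differ beyond their spread, and HLA-DRA had 0.989 ± 0.194. The other measured members were at 0.148 or below. With vehicle in that line, CD74 stood at 68.8 ± 1.39 CPM per kb, followed by CIITA (1.57 ± 0.164), HLA-DMA (1.06 ± 0.403), HLA-DRB1 (0.766 ± 0.198) and HLA-DRA (0.381 ± 0.113). There HLA-DMA overlapped in spread with both CIITA and HLA-DRB1. In MOLM-13 with selinexor, CD74 stood at 75.3 ± 0.877 CPM per kb and HLA-DMA was next at 5.44 ± 0.359. CIITA (1.77 ± 0.00897) and HLA-DPB1 (1.69 ± 0.229) did not differ beyond their spread, HLA-DQB1 had 1.08 ± 0.292 and HLA-DPA1 0.603 ± 0.134. With vehicle in MOLM-13 the order after CD74 (57.1 ± 2.34) was HLA-DPB1 (3.97 ± 0.970), HLA-DMA (2.53 ± 0.120), CIITA (1.73 ± 0.0609), HLA-DPA1 (1.47 ± 0.128) and HLA-DQB1 (0.446 ± 0.181). Per kb, the highest classical class II chain in MOLM-13 was HLA-DPB1 in both groups, and in OCI-AML2 it was HLA-DRB1 in both groups. With selinexor in MOLM-13 that order rests on the annotated exon lengths, 2.79 kb for HLA-DPB1 and 4.90 kb for HLA-DQB1, since before division by length HLA-DPB1 had 4.69 CPM and HLA-DQB1 5.29 CPM. CD74 exceeded HLA-DRB1 in level per kb by a fold of 46.1 with selinexor and 89.9 with vehicle in OCI-AML2, and exceeded HLA-DPB1 by 44.7 with selinexor and 14.4 with vehicle in MOLM-13.

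Of the 10 members, 8 lie in the class II interval of chromosome 6, chr6:32439842-33087201 from HLA-DRA to HLA-DPB1, with CD74 at chr5:150401637-150412929 and CIITA at chr16:10866222-10943021 (GENCODE 29, GRCh38). The interval is 647 kb long and holds 34 annotated genes. In OCI-AML2, 6 genes of it that are no members were tested, of which 2 were higher and 1 lower; in MOLM-13, 7 were tested, of which 3 were higher and 0 lower at adjusted p under 0.05 in edgeR. The share called was thus below the 63.1% of all genes in OCI-AML2 and the 63.6% in MOLM-13. TAP1, a subunit of the peptide transporter of class I presentation, had log2 fold changes of 0.23 ± 0.0701 in OCI-AML2 (edgeR, adjusted p = 0.00408) and 0.74 ± 0.0867 in MOLM-13 (edgeR, adjusted p = 1.50e-12). Its partner TAP2 fell in OCI-AML2, at -0.99 ± 0.127 (edgeR, adjusted p = 1.07e-08), and had -0.12 ± 0.176 in MOLM-13 (edgeR, adjusted p = 0.580). The immunoproteasome gene PSMB9 had 0.04 ± 0.105 in OCI-AML2 and 0.30 ± 0.0991 in MOLM-13 (edgeR, adjusted p = 0.00541 in MOLM-13), and PSMB8 and its antisense PSMB8-AS1 were not called in either line. BRD2, a chromatin reader next to HLA-DMA, had 0.18 ± 0.0398 in OCI-AML2 and 0.12 ± 0.0340 in MOLM-13, both called. BRD2 and HLA-DMA share 55 exonic bases on opposite strands. The genes of the interval therefore did not share 1 direction.

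**Figure D3:**
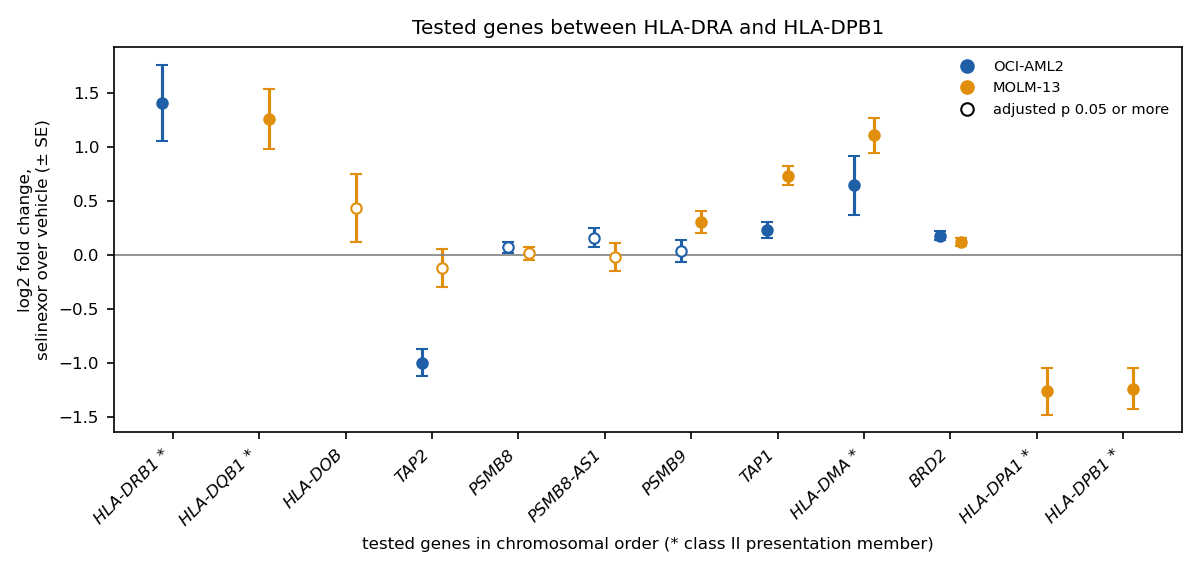
Log2 fold change of selinexor over vehicle with SE for every tested gene between HLA-DRA and HLA-DPB1, in chromosomal order; stars mark members and open circles an adjusted p of 0.05 or more. TAP2 (-0.99 in OCI-AML2) and the DP genes (-1.26 and -1.24 in MOLM-13) lie below 0, and HLA-DRB1 (1.41) and HLA-DQB1 (1.26) lie highest.

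The factors that sit on class II promoters went both ways. The counts of this list and of those after it stand beside 31.3% of all genes higher and 31.8% lower in OCI-AML2, and 31.8% each way in MOLM-13. Of 20 listed enhanceosome components and CIITA regulators, 18 were tested in each line, and in each line 3 were higher and 6 lower, with a median log2 fold change of -0.12 in OCI-AML2, against -0.02 in MOLM-13. The 4 tested members had a median of 0.56 in OCI-AML2 and the 6 in MOLM-13 one of 0.22, beside -0.00 and 0.01 over all genes tested. The OCI-AML2 median includes HLA-DRB1, which passed the filter only through its selinexor libraries, and HLA-DMA, whose call was near the threshold. It therefore does not measure a rise of the family. Of the RFX complex, which binds the X box, RFXANK was higher in OCI-AML2 (0.49 ± 0.0509; edgeR, adjusted p = 2.27e-11) and RFX5 lower (-0.20 ± 0.0663; edgeR, adjusted p = 0.00867). Their values in MOLM-13 were 0.10 and 0.09, neither called, and RFXAP was not called in either line. Of NF-Y, which binds the Y box, NFYB fell in both lines, by 0.49 in OCI-AML2 and by 0.65 in MOLM-13 on the log2 scale, and NFYC fell by 0.29 and by 0.38 in the same order. NFYA was lower in OCI-AML2 (-0.18) and was not called in MOLM-13 (0.05). EZH2, a histone methyltransferase that represses CIITA in several tumours, fell by 0.51 in OCI-AML2 and by 0.84 in MOLM-13, and the remodeller SMARCA4 fell by 0.53 and by 0.20. IRF8, a transcription factor of the myeloid lineage, rose by 0.22 in OCI-AML2 and 0.75 in MOLM-13.

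Interferon-gamma is the classical inducer of CIITA. Of 13 genes of its signalling, 10 were tested in OCI-AML2, with 4 higher, 1 lower and a median of 0.20, and 11 in MOLM-13, with 5 higher, 1 lower and a median of 0.19. The phosphatase PTPN6, a brake on cytokine signalling, rose by 0.25 ± 0.0388 in OCI-AML2 and by 0.39 ± 0.0409 in MOLM-13. Of 18 interferon-gamma targets outside class II, 8 were tested in OCI-AML2, with 1 higher and 3 lower, and 9 in MOLM-13, with 4 higher and 3 lower, at medians of 0.01 and 0.02. WARS, a tRNA synthetase, fell by 0.31 in OCI-AML2 and by 0.74 in MOLM-13, and FCGR1A, a high-affinity Fc receptor, fell by 0.39 and by 0.79. LAP3, an aminopeptidase, rose by 0.95 in MOLM-13 and had -0.03 in OCI-AML2.

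Most tested endosomal proteases and related genes were higher with selinexor. Of 13 proteases, inhibitors and related enzymes, 10 were tested in OCI-AML2, with 9 higher, 0 lower and a median of 0.54, and 8 in MOLM-13, with 5 higher, 1 lower and a median of 0.42. CTSF, 1 of those 5, averaged 2.23 ± 0.967 CPM with selinexor and 0.527 ± 0.0853 CPM with vehicle in MOLM-13 (joint scaling, SD, n = 3 each). It passed the filter on low counts only through its selinexor libraries, which favours that call. CST3, the cathepsin inhibitor cystatin C, averaged 422 ± 19.0 CPM with selinexor and 193 ± 5.86 CPM with vehicle in OCI-AML2 (SD, n = 3 each), a log2 fold change of 1.12, and rose by 0.68 in MOLM-13. CTSS, the cathepsin that trims the invariant chain in antigen-presenting cells, rose by 0.27 ± 0.0643 in OCI-AML2 and by 0.41 ± 0.0555 in MOLM-13. CTSH and CTSL rose by 1.15 and 1.00 in OCI-AML2 and were too low to test in MOLM-13. CTSB was higher in OCI-AML2 (0.38) and lower in MOLM-13 (-0.43). Of 21 genes of trafficking and turnover, 19 were tested in each line, with 7 higher and 5 lower in OCI-AML2 and 8 higher and 6 lower in MOLM-13, at medians of -0.02 and 0.11. The tetraspanins CD82 and CD63, which accompany class II in endosomes, rose by 1.60 and 0.96 in OCI-AML2 and by 0.65 and 0.39 in MOLM-13, and the motor KIF5B fell by 0.63 in OCI-AML2 and by 0.40 in MOLM-13.

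Of 17 co-stimulation and T cell contact genes, 8 were tested in OCI-AML2, with 4 higher and 1 lower at a median of 0.23, and 10 in MOLM-13, with 6 higher and 1 lower at a median of 0.31. VSIR, which encodes the inhibitory checkpoint ligand VISTA, had 119 ± 1.52 CPM with selinexor and 27.4 ± 3.51 CPM with vehicle in OCI-AML2, and 70.8 ± 3.13 CPM with selinexor and 11.98 ± 0.586 CPM with vehicle in MOLM-13 (SD, n = 3 each). The log2 fold changes were 2.12 ± 0.0711 in OCI-AML2 and 2.56 ± 0.0918 in MOLM-13. TNFSF9, the ligand of 4-1BB, rose by 1.06 and 1.12. CD83, a maturation marker known to stabilise surface class II, fell by 0.54 in OCI-AML2 and by 0.83 in MOLM-13. Of 10 other class II loci, 0 were tested in OCI-AML2 and 1 in MOLM-13, HLA-DOB, a modulator of HLA-DM, which was not called (0.43 ± 0.314; edgeR, adjusted p = 0.227).

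**Figure D4:**
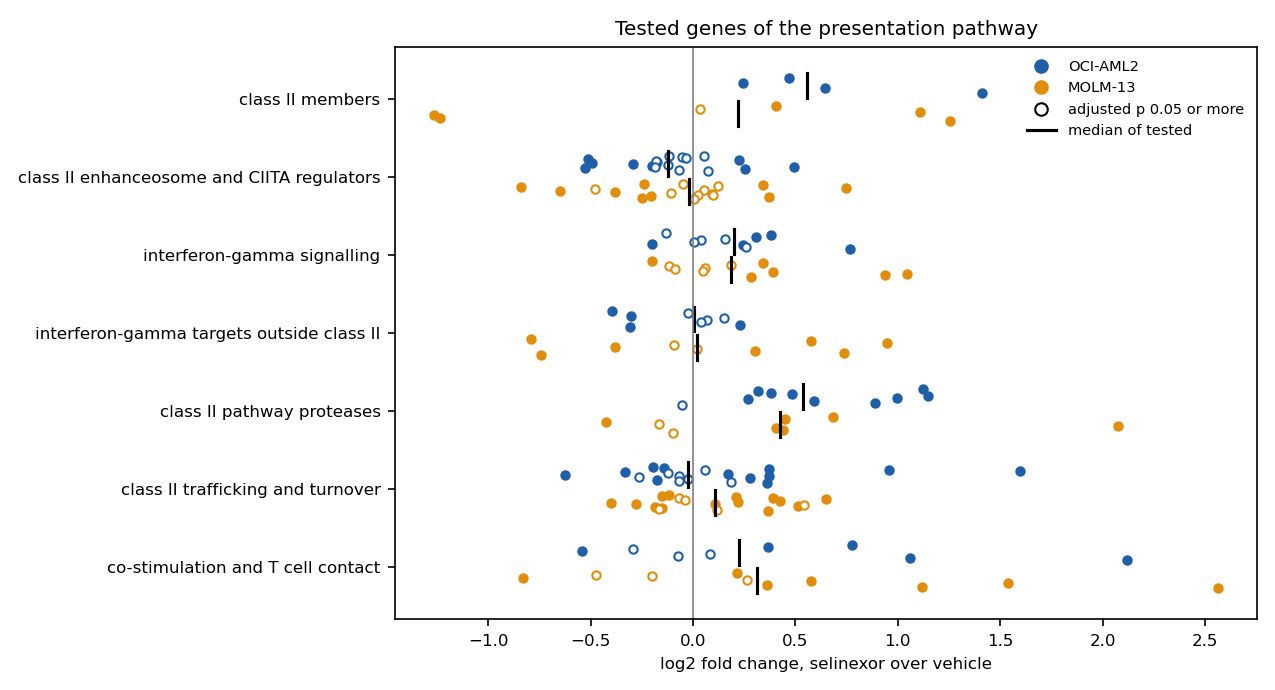
Log2 fold change of selinexor over vehicle for each tested gene of the members and of 6 related lists, with OCI-AML2 above MOLM-13 in each row; filled points have an adjusted p under 0.05 and black ticks mark the median of the tested genes. The proteases have medians of 0.54 and 0.42, and the promoter factors of -0.12 and -0.02.

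Lists of markers were read beside these results, because class II is at home in B cells, dendritic cells and monocytes. Of 14 myeloid blast identity markers, 11 were tested in OCI-AML2 (7 higher, 2 lower) and 10 in MOLM-13 (7 higher, 1 lower). Their summed level was 10963 to 11239 CPM with selinexor and 2763 to 2950 CPM with vehicle in OCI-AML2, and 2913 to 2942 CPM with selinexor and 1314 to 1333 CPM with vehicle in MOLM-13. LYZ, the lysozyme of myeloid cells, had the larger part of it in OCI-AML2, at 9580 ± 146 CPM with selinexor and 1735 ± 106 CPM with vehicle, with log2 fold changes of 2.47 in OCI-AML2 and 3.04 in MOLM-13. CEBPA, a granulocyte and monocyte factor, rose by 0.60 and 0.97, and FLT3, a receptor kinase, by 1.05 and 0.39. FCGR1A was lower in both lines, and MPO was lower in OCI-AML2 and higher in MOLM-13. CD34, a stem and progenitor marker, had no row in either table. Of 10 B cell markers, 5 had no row in either table, MS4A1 and IGHM among them. The B cell sum was 7.55 to 10.0 CPM with selinexor and 3.82 to 4.74 CPM with vehicle in OCI-AML2, where PAX5 (1.02) and CD79B were called higher, and 2.65 to 4.50 CPM with selinexor and 3.25 to 5.80 CPM with vehicle in MOLM-13, where PAX5 was not called (-0.72). Of 13 dendritic cell markers, 5 were tested in OCI-AML2 (2 higher, 1 lower) and 2 in MOLM-13 (0 higher, 1 lower). Sums over the 13 were 28.7 to 36.3 CPM with selinexor and 30.3 to 32.2 CPM with vehicle in OCI-AML2. In MOLM-13 the sums were 10.4 to 14.4 CPM with selinexor and 18.5 to 24.1 CPM with vehicle. BATF3, a dendritic cell transcription factor, was the lower one in both lines (-1.53 and -2.05), and FCER1A and the transcription factor ZBTB46 were called higher in OCI-AML2. FCER1A had 19, 23 and 18 counts with selinexor and 3, 3 and 2 with vehicle there, a depth-scaled ratio of 9.06 with a 95% counting interval of 4.31 to 21.9. CD79B had 11, 10 and 17 counts with selinexor and 7, 1 and 2 with vehicle, a ratio of 4.59 with an interval of 2.24 to 10.3. Both passed the filter on low counts only through their selinexor libraries. Of 10 T and NK cell markers, 2 were tested in each line, NKG7 and NCAM1. Both were higher in OCI-AML2 (0.45 and 0.67), and in MOLM-13 NCAM1 was lower (-0.25) and NKG7 not called. Sums over the 10 were 106 to 113 CPM with selinexor and 67.8 to 72.2 CPM with vehicle in OCI-AML2. In MOLM-13 the sums were 116 to 125 CPM with selinexor and 137 to 144 CPM with vehicle. CD3E, CD2 and KLRD1 had no row in either table. The part of these markers in the class II values was not tested.

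Genes with a profile like that of CD74, the most abundant member, were looked for over the 12 libraries. The likeness was the root mean square difference of centred log2 CPM over the 12 libraries, among 10289 genes with a mean of at least 5 CPM, whose median was 0.443. The nearest were HCLS1 (0.0506), ACADVL (0.0567), TLE1 (0.0626), ZNHIT1 (0.0628) and COQ8A (0.0643). HCLS1, for example, averaged 433 CPM with selinexor and 303 CPM with vehicle in OCI-AML2, and 337 CPM with selinexor and 266 CPM with vehicle in MOLM-13. The 12 libraries share 4 groups, so the measure reflects mainly the group means.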

How the data were processed

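The authors deposited raw counts, whole numbers per symbol, in 1 table per line. The deposited normalized tables hold a signal equal to the count over 1 size factor per library (largest relative difference 5.3e-15), used only for that check. The authors' deposited MOLM-13 table gives log2 fold changes of vehicle over selinexor. Per the labels' protocols, poly(A) RNA was selected and strand was not kept. The submitters' processing notes name STAR, hg38, DESeq2 and R 3.6.1; which annotation was counted is not given in the sources used here. Each table was assigned its line by the initial in its name. Library numbers follow the order of columns, which have no replicate labels, and only name a library.

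Counts were fitted per line with edgeR 4.0.16 in R 4.3.3: TMM, filterByExpr (minimum count 10, minimum total 15), robust quasi-likelihood tests and Benjamini-Hochberg adjusted p under 0.05. The filter removed 0.0996% of the OCI-AML2 counts and 0.109% of the MOLM-13 counts. The interaction and the vehicle contrast used all 12 libraries and the genes in both tables. Alternatives were size factors from DESeq2 1.42.0, DESeq2 itself, limma 3.58.1 voom, no filter, the joint fit and leaving out each library; the fits were tested on simulated data. Replicates of a group had Spearman correlations of 0.986 to 0.990 and no libraries were identical. CPM are TMM-scaled within a line; CPM per kb and likeness use the joint scaling and GENCODE 29 exons. Counting intervals treat reads as independent molecules and cover counting error only.

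All members are named, and from each other list up to 2 genes per line by smallest p; 1 gene the rule takes is not reported here. RFX5, RFXAP, NFYA, NFYB, NFYC, CTSS, CTSL, CD83, the interval's genes and HLA-DRB5 were added for their role or position after values were seen. MPO was named for its opposite calls in the lines, also after values were seen. The members and lists were chosen with earlier results of these data known.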

Additional observations from a re-analysis of the deposited data

Results flagged for a closer look

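Of 51 genes named here, without MPO, HLA-DRB5 and the 5 genes nearest CD74, 48 were tested for a difference between the lines. By the interaction itself 22 differed in their response to selinexor (edgeR's quasi-likelihood test, adjusted p under 0.05), where 30.1% of all genes tested did. Most were named for a small p of selinexor against vehicle or after values were seen, so the 2 shares cannot be compared. The values are log2 differences, the effect in OCI-AML2 minus that in MOLM-13, and line and dose cannot be told apart. Among the class II members it was HLA-DPA1 (2.62). In MOLM-13 its selinexor libraries all lay below its vehicle libraries, where 32.8% of all genes lay wholly below. In OCI-AML2 it was below the filter and not tested alone, at 6, 7 and 10 counts with selinexor and 3, 7 and 1 with vehicle. A rise in that line is therefore not shown. Among promoter factors and regulators RFXANK (0.44) and EZH2 (0.37) were more positive in OCI-AML2, and RFX5 (-0.24), SMARCA4 (-0.27) and IRF8 (-0.48) more negative. In the interferon lists WARS (0.48) and FCGR1A (0.44) were more positive, and LAP3 (-0.92), TAP1 (-0.46) and the neighbouring TAP2 (-0.83) more negative. In the endosomal lists CTSB (0.85), CST3 (0.49), CD82 (0.99) and CD63 (0.61) were more positive and KIF5B (-0.18) more negative. VSIR (-0.40) of the co-stimulation list was more negative, although it rose in both lines. Of the marker lists, FLT3 (0.71), NCAM1 (0.97) and PAX5 (1.79) were more positive, and LYZ (-0.53) and CEBPA (-0.32) more negative. MPO, outside the 51 and named for its opposite calls, had -1.61 ± 0.156 (edgeR, adjusted p = 1.34e-14). The largest adjusted p among the 22 was that of KIF5B, 0.0308.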

How the results depend on the processing

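No paired analysis was possible because the table columns carry no replicate numbers. Over the results for members, 323 comparisons with an alternative kept direction and side of the threshold, 7 lost the call, 1 gained it and 2 changed sign; DESeq2 gave no adjusted p for the HLA-DRB1 interaction, which is left out of these. The losses were HLA-DMA and CIITA in OCI-AML2, given beside their values. In OCI-AML2 the count of members called higher was 2 to 4 when 1 library was left out, against 4 with all libraries, the 2 arising without selinexor library 3. Limma voom called 2 members higher in the interaction, against 1. The added one was HLA-DRB1, which passed the filter only through its OCI-AML2 selinexor libraries. With 1 library left out, the interaction of HLA-DQB1 ran from -0.86 to 0.33, positive without OCI-AML2 vehicle library 1, and that of CD74 from -0.0075 to 0.14, negative without MOLM-13 vehicle library 2; neither was called in any setting, and the cause was not tested. Of all interaction calls, 63.2% were higher with TMM, 55.6% with DESeq2 size factors and 43.2% to 44.2% without any 1 of the OCI-AML2 vehicle libraries or MOLM-13 vehicle library 2. Depth limits the DR, HLA-DMB and HLA-DQA1 values in MOLM-13 and the DP and DQ values in OCI-AML2, which rest on few counts.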
